A study of Mus musculus with 3 samples.

Results

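The genes described here are 34 members of the machinery that fills, docks, fuses and recovers synaptic vesicles, listed by name. The list was chosen with earlier results of these data known, so counts over it are not independent of the data. All 34 were found among the 31744 gene symbols of the deposited matrices. They were read in 3 single-cell RNA libraries of mouse embryonic fibroblasts on their way to induced motor neurons: their level in each library, the share of the later level already reached at 4 dpi (dpi is the time unit of the labels), and their difference between the 14 dpi libraries in cells with Stmn2, a neuronal regulator of microtubules.

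A synaptic vesicle fuses with the presynaptic membrane when the vesicle protein synaptobrevin zips together with syntaxin and SNAP-25 on the membrane, a step that synaptotagmins tie to calcium and that complexins and Munc13 proteins set up. Synapsins and Rab3 proteins hold and deliver vesicles, the giant scaffolds Bassoon and Piccolo organise the release site, and dynamin, amphiphysin and synaptojanin recover the membrane afterwards. Motor neurons use this machinery to release acetylcholine at the neuromuscular junction. Fibroblasts have related genes for their own membrane traffic, such as Nsf and Sypl.

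All cells had the Hb9::GFP genotype, a reporter for the motor neuron gene Mnx1, and had received the same constructs. These were LNI, which joins Lhx3, Neurog2 and Isl1 in 1 cassette, and DDRR, which encodes an activated HRAS and p53DD, an inhibitory fragment of p53. The library without supplements was made at 14 dpi from cells sorted as Hb9::GFP-positive after conversion without BDNF, CNTF, GDNF, FGF and RepSox, an inhibitor of TGF-beta signalling. The 14 dpi library with supplements came from cells sorted in the same way after conversion with them. The 4 dpi library came from cells converted with supplements and sorted for low CellTrace-FarRed, a dye that division dilutes, so its cells were chosen for rapid division and not by the reporter. Cells were freed with papain and DNase at 14 dpi and with trypsin at 4 dpi, so time, sort and dissociation cannot be told apart in any comparison with 4 dpi. Supplements differ as well in each comparison of the library without supplements with 4 dpi, and cannot be told apart from them. All 3 libraries have the same batch label. Each group holds 1 library, and nothing in the labels gives a second culture. No difference below has a replicate check, no p-value is given, and every interval (95%) covers counting error only.

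After filtering, 3716 cells without supplements, 2314 with supplements and 4492 at 4 dpi were kept. They had medians of 10664, 14380.5 and 2312.5 unique molecular identifiers (UMIs, counts of captured transcripts) per cell, so the 4 dpi cells were far shallower. The libraries shared 3 to 5 cell barcodes in each pair. All 18 markers on the neuron list were detected in every library, and Mnx1 itself stood at 21.4, 12.0 and 0.574 counts per 1000000 UMIs (CPM) in the library without supplements, the library with supplements and the 4 dpi library. Chat, the enzyme that makes acetylcholine, was low at 4.03 and 1.96 CPM at 14 dpi without and with supplements, and had 0 UMIs at 4 dpi. Defining markers of motor neurons were thus present at 14 dpi but low. The 20 fibroblast markers were all detected too, with summed levels of 4845, 3228 and 8522 CPM in the same order.

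The promoters of 27 members were read from a RefSeq table of the GRCm38.p6 build, as 38 windows that run from 250 bases before to 50 bases after a transcription start. They were searched for motifs of the introduced factors and for the element of REST, a repressor of neuronal genes outside neurons. The 4 windows below are shown because they are the members with at least 10 CPM in a library that held the E-box of Neurog2-type factors or a part of the REST element (RE1). Capitals mark the match, and each sequence runs 5′ to 3′ in the direction of the gene.
Syn2 chr6:115238744-115239043 plus strand: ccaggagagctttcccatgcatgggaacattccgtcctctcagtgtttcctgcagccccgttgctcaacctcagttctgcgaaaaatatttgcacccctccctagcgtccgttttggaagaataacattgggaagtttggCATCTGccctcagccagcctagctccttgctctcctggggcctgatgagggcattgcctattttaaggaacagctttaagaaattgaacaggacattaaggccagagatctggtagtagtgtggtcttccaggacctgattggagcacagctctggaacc
Pclo chr5:14514668-14514967 plus strand: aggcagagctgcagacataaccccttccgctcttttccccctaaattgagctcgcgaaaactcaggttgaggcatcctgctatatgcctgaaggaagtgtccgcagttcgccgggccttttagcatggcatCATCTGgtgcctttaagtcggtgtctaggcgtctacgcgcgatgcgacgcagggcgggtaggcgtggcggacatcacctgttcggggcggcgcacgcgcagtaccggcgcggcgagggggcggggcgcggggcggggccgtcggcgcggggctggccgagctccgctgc
Syn1 chrX:20920869-20921168 minus strand: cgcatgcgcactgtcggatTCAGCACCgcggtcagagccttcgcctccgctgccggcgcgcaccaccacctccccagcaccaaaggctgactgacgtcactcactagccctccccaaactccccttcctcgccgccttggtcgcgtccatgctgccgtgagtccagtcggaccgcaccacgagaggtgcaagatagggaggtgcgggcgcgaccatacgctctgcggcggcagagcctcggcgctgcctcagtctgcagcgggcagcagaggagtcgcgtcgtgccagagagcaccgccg
Unc13a chr8:71671708-71672007 minus strand: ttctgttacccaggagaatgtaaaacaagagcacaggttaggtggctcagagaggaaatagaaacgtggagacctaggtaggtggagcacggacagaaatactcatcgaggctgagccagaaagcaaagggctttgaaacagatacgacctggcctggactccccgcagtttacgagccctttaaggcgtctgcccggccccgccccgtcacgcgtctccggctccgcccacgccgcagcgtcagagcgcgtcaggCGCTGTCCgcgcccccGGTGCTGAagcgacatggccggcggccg
The E-box CAGATG, searched on both strands, was read as CATCTG in the Syn2 and Pclo windows. It was in 4 of the 38 member windows, 10.5%, against 17.2% of 32851 windows of all genes. The palindromic form CATATG was in 5.26% of member windows and 3.91% of all windows. The homeodomain core TAATTA, of the kind bound by Lhx3 and Isl1, was in 2.63% of member windows and 5.29% of all windows. The left part of the RE1 element, TCAGCACC, was in the Syn1 and Unc13a windows, which is 5.26% of member windows against 1.65% of all windows. The right part, GGACAGCG, was in the Unc13a window alone, 2.63% against 1.26%. These motifs do not overlap each other in letters. A match is a description of these letters and not a site of binding.

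The machinery as a whole stood several times higher at 14 dpi than at 4 dpi. Member transcripts summed to 1815 CPM without supplements, 1944 CPM with supplements and 381 CPM at 4 dpi, from 83229, 71497 and 4654 UMIs. These sums run over all kept cells, so more neurons and more transcript per neuron cannot be told apart in them. Members were compared where they reached 10 CPM in either library, and called at a 2-fold difference. Of the 26 members that reached that level, 22 were at least 2-fold higher without supplements than at 4 dpi, where 15.7% of all 9474 genes tested were. With supplements, 22 of 26 were at least 2-fold higher than at 4 dpi, against 15.4% of 9415 genes. None of these members was 2-fold lower in either comparison, against 9.64% and 10.1% of genes. The comparisons share the 4 dpi library, so they are not independent of each other.

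Part of these counts is fixed by the level rule. Of the 26 members, 13 reached 10 CPM only through the 14 dpi library, so they had to be higher there. Of the other 13, which had at least 10 CPM at 4 dpi, 9 were at least 2-fold higher in each comparison. The share of all genes with at least 10 CPM at 4 dpi that were higher was not computed. The median log2 ratio of the 26 members was 2.45 without supplements and 2.65 with supplements, beside 0.09 and 0.11 over all genes. In the same comparisons 17 of 18 and 17 of 17 neuron markers were at least 2-fold higher at 14 dpi, and 6 and 14 of 20 fibroblast markers at least 2-fold lower. Their part in the members' levels was not tested.

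**Figure D1:**
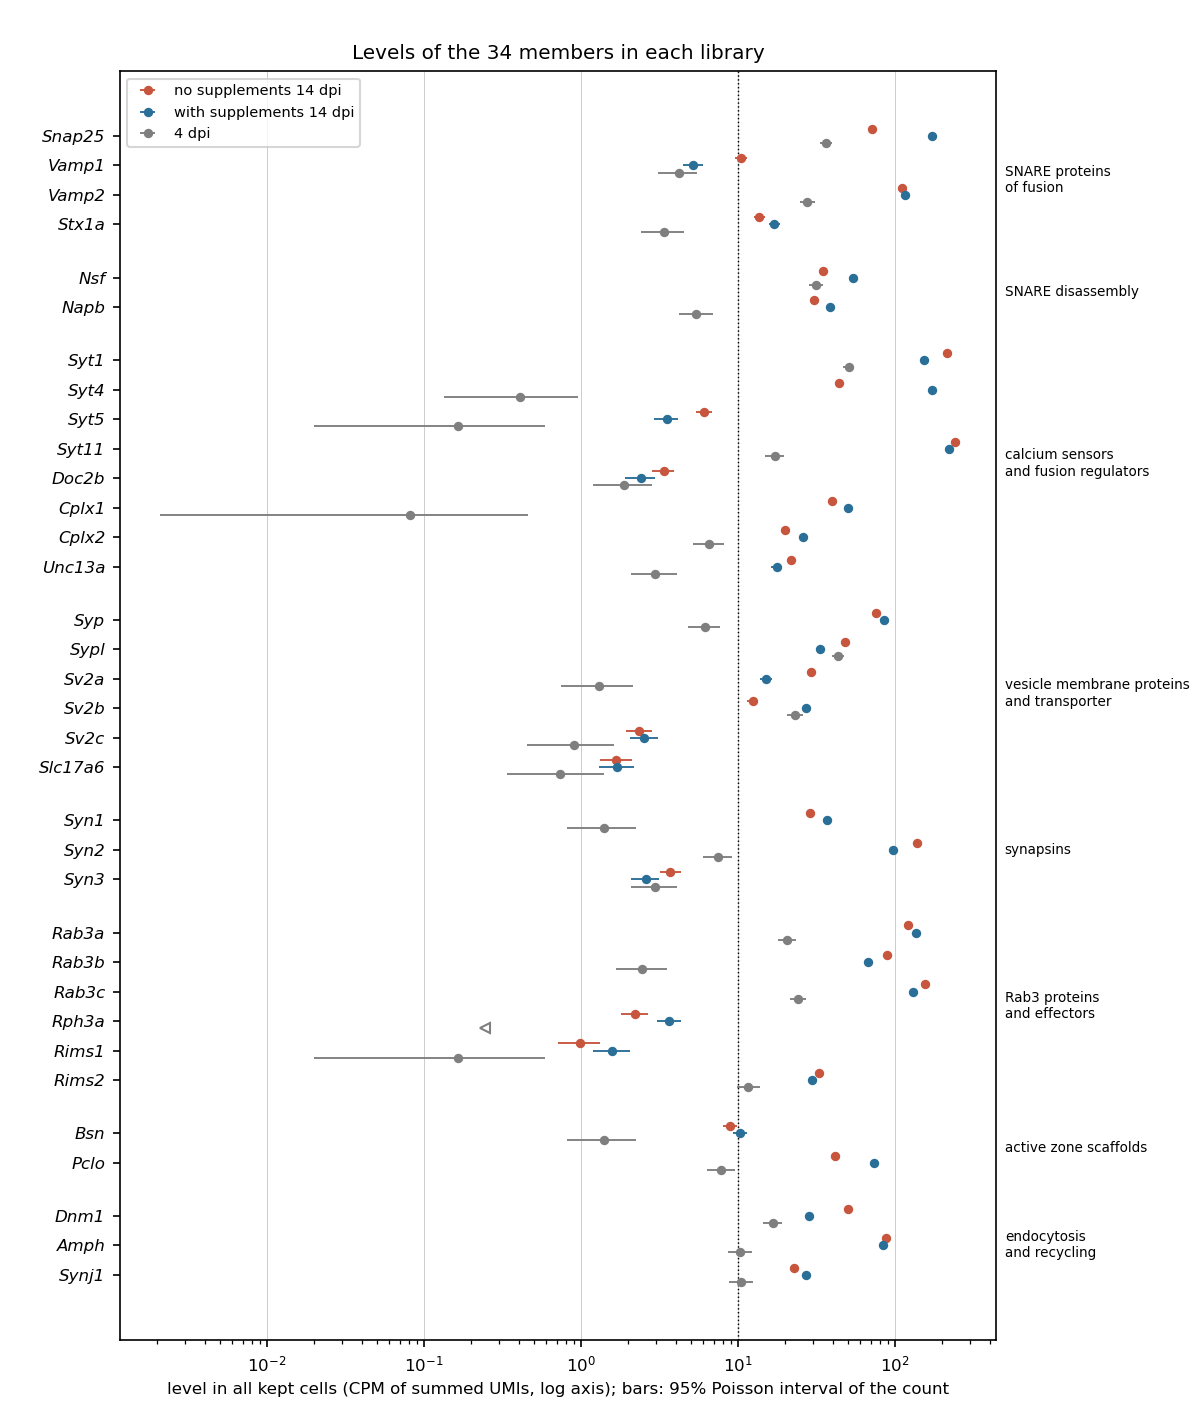
Level of each of the 34 members in all kept cells, in CPM of summed UMIs on a log axis, grouped by role; points are the libraries without supplements, with supplements and at 4 dpi, bars are 95% Poisson intervals, the open triangle marks 0 UMIs at the level of 3 counts, and the dotted line is 10 CPM. The 14 dpi points stand to the right of the 4 dpi point for most members, while those of Sypl, Nsf and Sv2b stand close to it or on either side.

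All 4 SNARE genes of fusion had UMIs at 4 dpi, and Vamp2 and Stx1a were at least 2-fold higher in both 14 dpi libraries. Snap25, the SNARE of the plasma membrane, had 71.9 CPM without supplements, 172 CPM with supplements and 36.4 CPM at 4 dpi. It was thus 1.97-fold above 4 dpi without supplements, just under the threshold, and 4.73-fold with them. Vamp2, the main synaptobrevin, had 110, 117 and 27.7 CPM, 3.98-fold and 4.21-fold above 4 dpi. Its relative Vamp1, another synaptobrevin, was low at 10.5, 5.17 and 4.18 CPM, and its log2 ratio with supplements over 4 dpi of 0.31 has 0 in its interval (-0.15 to 0.78). Stx1a, the syntaxin of the presynaptic membrane, had 13.7, 17.0 and 3.36 CPM, 4.06-fold and 5.06-fold above 4 dpi. Of the proteins that take the complex apart after fusion, the ATPase Nsf had 34.8, 53.9 and 31.5 CPM, a log2 ratio to 4 dpi of 0.14 (-0.02 to 0.31) without and 0.78 (0.62 to 0.94) with supplements. With supplements it passed 2-fold when Tubb3-positive cells were compared, at 1.24. Its adaptor Napb, the neuronal form of SNAP, had 30.4, 38.7 and 5.41 CPM, 5.61-fold and 7.15-fold above 4 dpi.

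Synaptotagmins changed their make-up between 4 and 14 dpi. Syt1, the fast calcium sensor, was the highest of all members at 4 dpi with 50.6 CPM, and had 215 CPM without and 154 CPM with supplements. Syt11, a synaptotagmin that does not bind calcium, was the highest at 14 dpi with 241 and 221 CPM, against 17.1 CPM at 4 dpi. Syt4, a form with little calcium binding that is found on secretory granules, had 43.9 CPM without and 172 CPM with supplements, against 0.410 CPM at 4 dpi from 5 UMIs. Syt5 stayed low at 6.06, 3.51 and 0.164 CPM. As a share of the UMIs of these 4 genes, Syt1 took 42.5% without supplements, 27.9% with supplements and 74.1% at 4 dpi. Syt4 took 8.69%, 31.2% and 0.600% in the same libraries. Levels of different genes are set side by side here because 3′ counts score each transcript once, whatever its length. Other differences between genes in how well they are counted were not examined.

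The complexins, which clamp and prime the SNARE complex, showed the largest gap. Cplx1 had 1810 UMIs without supplements and 1839 with supplements, against 1 UMI in 4492 cells at 4 dpi. That is 39.5, 49.997 and 0.0819 CPM, a log2 ratio of 8.91 (interval 6.43 to 14.22) without and 9.25 (6.77 to 14.56) with supplements, whose width reflects the 1 UMI. Cplx2 had 19.9, 26.1 and 6.56 CPM. At 4 dpi it held 80 of the 81 complexin UMIs, 98.8% (93.3 to 100), but 33.6% without and 34.3% with supplements at 14 dpi. Unc13a, the Munc13 protein that primes vesicles, had 21.7, 17.6 and 2.95 CPM. Doc2b, a calcium sensor of spontaneous release, was under 10 CPM throughout, at 3.36, 2.39 and 1.88 CPM.

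Among vesicle membrane proteins, related genes had different patterns. Synaptophysin, Syp, an abundant membrane protein of the synaptic vesicle, had 75.8 CPM without supplements, 85.4 CPM with supplements and 6.15 CPM at 4 dpi. Sypl, a relative of Syp that many tissues express, had 47.7, 33.4 and 43.5 CPM. Syp took 61.4%, 71.9% and 12.4% of the UMIs of the pair. Sv2a, the SV2 form found in most neurons and a target of antiepileptic drugs, had 29.2, 15.1 and 1.31 CPM. Sv2b, a form of more limited distribution, had 12.4, 27.1 and 23.2 CPM. The library without supplements was thus lowest in Sv2b and highest in Sv2a, and Sv2b was the only one of the 26 members that was lower there than at 4 dpi, by 1.87-fold. Sv2a took 66.4% of SV2 UMIs without supplements (interval 64.3 to 68.4), 33.7% with supplements (31.4 to 36.0) and 5.16% at 4 dpi (2.98 to 8.25). Sv2c had 2.36, 2.53 and 0.901 CPM.

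**Figure D2:**
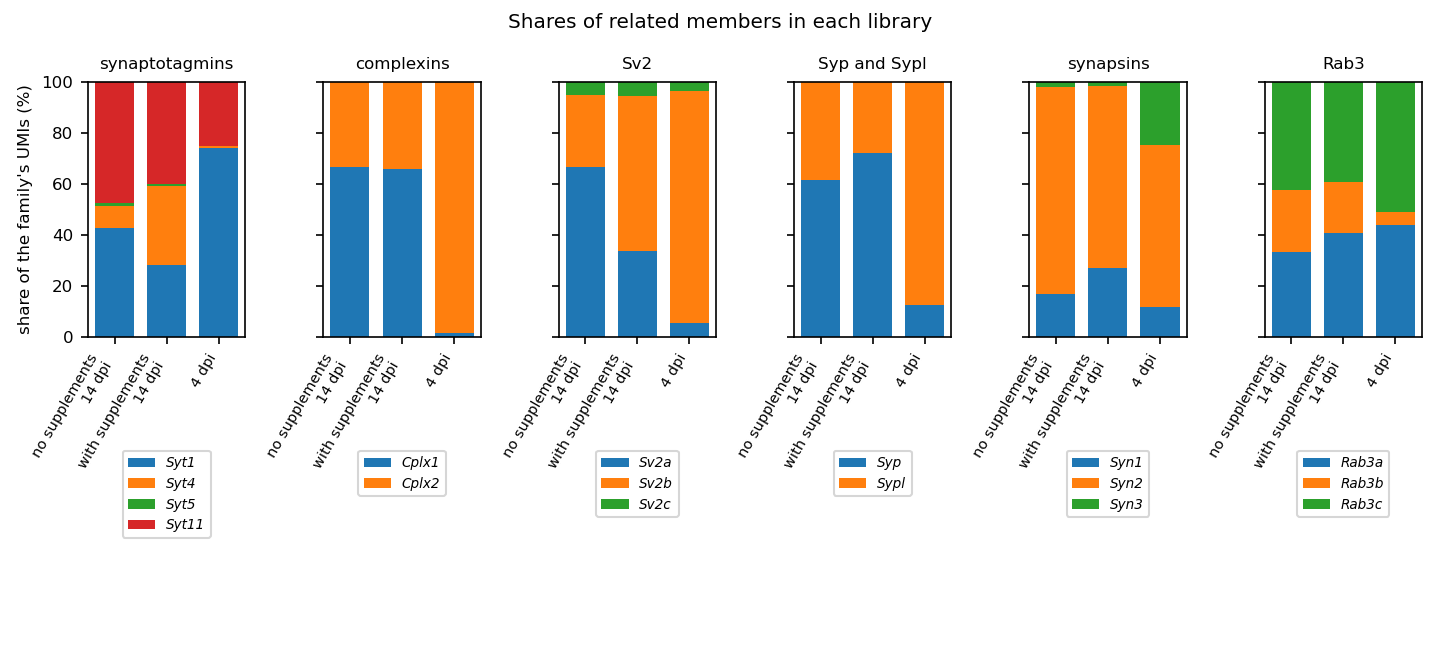
Share of the UMIs of each family of related members, in %, as stacked bars for the libraries without supplements, with supplements and at 4 dpi, over all kept cells. Cplx1, Syp and Sv2a take 66.4%, 61.4% and 66.4% of their families without supplements, 65.7%, 71.9% and 33.7% with supplements, and 1.23%, 12.4% and 5.16% at 4 dpi.

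Transporters that load the vesicle were scarce. Slc17a6, the glutamate transporter VGLUT2 among the members, had 1.68, 1.69 and 0.738 CPM. Among transporters outside the members, Slc18a3, which loads acetylcholine, was the one past 10 CPM, at 13.4, 16.1 and 0.328 CPM. The transporter of GABA and glycine, Slc32a1, had 0, 2 and 0 UMIs.

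Synapsins, which tether vesicles to actin and to each other, were low at 4 dpi. Syn1 had 28.6 CPM without supplements, 37.1 CPM with supplements and 1.39 CPM at 4 dpi, 20.5-fold and 26.6-fold above 4 dpi. Syn2 had 139, 97.3 and 7.46 CPM, 18.6-fold and 13.0-fold above 4 dpi, and was the main synapsin in each library with 81.1%, 71.1% and 63.2% of synapsin UMIs. Syn3 did not follow them, at 3.71, 2.58 and 2.95 CPM. Each synapsin gene holds a Timp gene on the opposite strand in the GENCODE annotation, and that of Syn2 overlaps an exon. Exons of Syn1, Unc13a, Syp, Sv2b, Rab3a, Rab3b, Syt4, Doc2b and Pclo also overlap a gene on the opposite strand. The sources used here do not say whether counting used strand or took in introns, so reads of such partners cannot be told apart. Timp4, the gene inside Syn2, had 4.14, 3.59 and 0.328 CPM, Timp1 inside Syn1 had 141, 97.1 and 141 CPM, and Timp3 inside Syn3 had 123, 87.5 and 130 CPM.

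Rab3 proteins, the small GTPases that bring vesicles to the release site, were among the most abundant members at 14 dpi. Rab3c had 155 CPM without supplements, 131 CPM with supplements and 24.1 CPM at 4 dpi, and Rab3a had 122, 136 and 20.6 CPM. Rab3b had 89.2 and 66.9 CPM at 14 dpi, against 2.46 CPM at 4 dpi. It took 24.4%, 20.1% and 5.22% of Rab3 UMIs. Of the Rab3 effectors, Rims2, a scaffold of the active zone, had 32.7, 29.7 and 11.6 CPM. Its relative Rims1 had 0.981, 1.58 and 0.164 CPM. Rph3a, rabphilin, had 2.20, 3.64 and 0 CPM. It had 0 UMIs at 4 dpi, where 3 counts would make 0.246 CPM.

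The release-site scaffolds Pclo and Bsn, piccolo and bassoon, had 41.6 and 8.90 CPM without supplements, 73.8 and 10.3 CPM with supplements, and 7.79 and 1.39 CPM at 4 dpi. Bsn shares an exon with another gene on its strand in the GENCODE annotation, so its counts are uncertain. Of the genes of recovery, Amph, amphiphysin, had 87.8, 84.4 and 10.3 CPM, 8.50-fold and 8.17-fold above 4 dpi. Synj1, the lipid phosphatase that strips clathrin coats, had 22.8, 27.3 and 10.5 CPM. Dnm1, the neuronal dynamin that cuts vesicles from the membrane, had 50.3, 28.3 and 16.6 CPM, 3.02-fold above 4 dpi without and 1.70-fold with supplements. In fibroblast marker cells, defined below, Dnm1 had 41.3, 39.1 and 29.7 CPM in the same order, so its level was not particular to cells with neuronal transcripts.

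The 4 dpi level as a percentage of the 14 dpi level ranks the members by how much of the later level was there at 4 dpi. It is a ratio between differently sorted libraries, not a course followed in the same cells. Members under 10 CPM at 14 dpi were left unranked, and some of them had high percentages. Syn3 stood at 79.6% and 114%, Doc2b at 56.1% and 78.8%, and Vamp1, with supplements, at 80.9%. Of the 26 members ranked against the library without supplements, 4 stood at 50% or more of their later level, 14 between 10 and 50% and 8 under 10%. The counts were 4, 14 and 8 against the library with supplements too, with medians of 18.3% without and 15.9% with supplements. The genes at 50% or more against both libraries were Sv2b at 187% and 85.6% of the levels without and with supplements, Sypl at 91.2% and 130% and Nsf at 90.5% and 58.3%. In fibroblast marker cells, defined below, Sypl had 51.9, 47.9 and 49.7 CPM without supplements, with supplements and at 4 dpi. Snap25 stood at 50.6% without supplements but not with supplements, at 21.1%. Dnm1 was at 33.1% without and 58.7% with supplements. The genes under 10% against both libraries were Cplx1, Syt4, Rab3b, Syn1, Sv2a, Syn2, Syt11 and Syp. They ran from 0.208% for Cplx1 to 8.10% for Syp without supplements, and from 0.164% for Cplx1 to 8.71% for Sv2a with supplements.

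The middle of the ranking held Vamp2 and Stx1a at 25.1% and 24.6% without and 23.8% and 19.8% with supplements. Syt1, Cplx2, Rab3a and Rab3c lay on either side of them. Synj1 and Rims2 stood higher, at 46.0% and 35.6% without and 38.5% and 39.2% with supplements. Neighbours in this ranking were rarely apart. The intervals overlapped in 23 of 25 neighbouring pairs without and 21 of 25 with supplements, so the ranking is one of groups and not of single genes. Relatives fell into different groups, with Sypl and Sv2b at 50% or more and Syp and Sv2a under 10%.

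**Figure D3:**
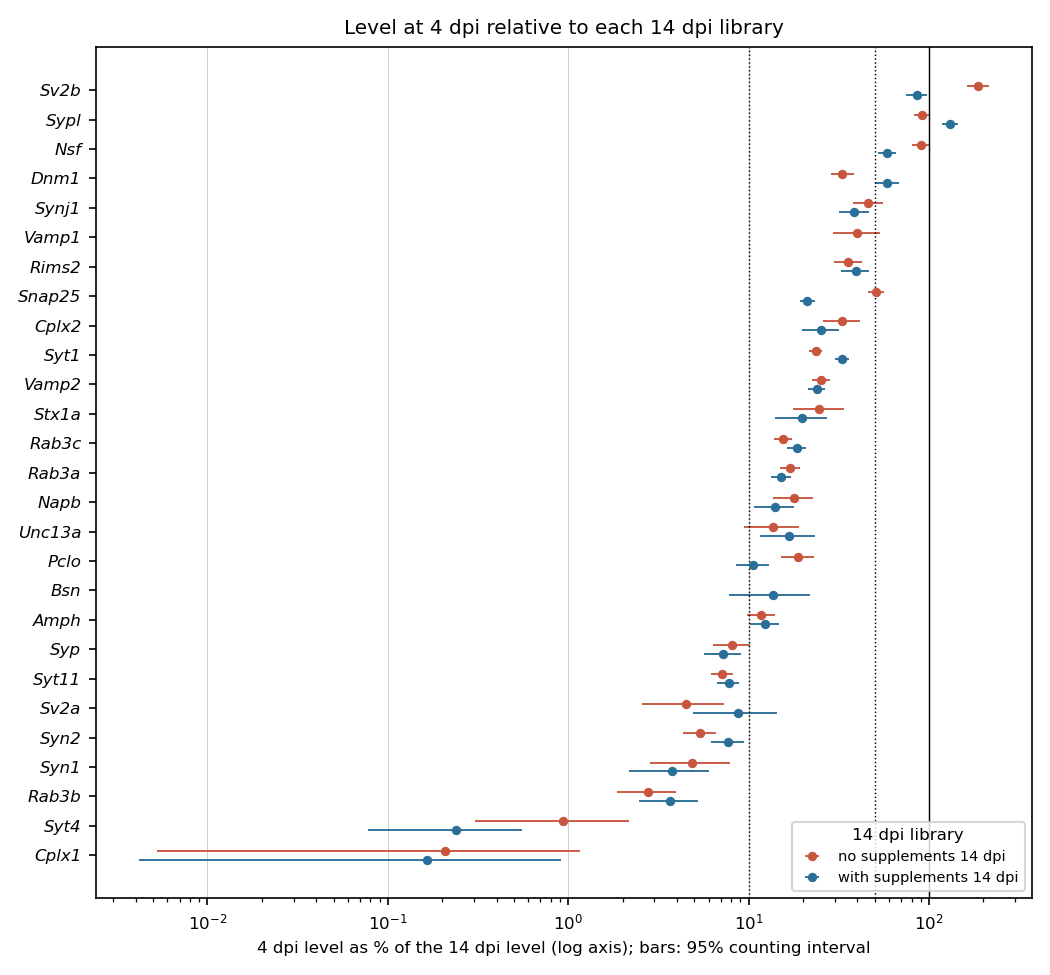
Level at 4 dpi as a percentage of the level at 14 dpi for members with at least 10 CPM at 14 dpi, on a log axis, against the library without supplements and the library with supplements; bars are 95% counting intervals and lines mark 10, 50 and 100%. Without and with supplements, Sv2b stands at 187% and 85.6%, Sypl at 91.2% and 130% and Nsf at 90.5% and 58.3%, Syt4 and Cplx1 stand under 1%, and the others lie between 2.76% and 58.7%.

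Shares of cells were compared at equal depth. With each cell thinned to 1000 UMIs, which left out 22, 31 and 113 shallower cells, the libraries without supplements, with supplements and at 4 dpi held on average 1.54, 1.63 and 0.361 detected members per cell. Syt11 was detected in 18.3% of cells without supplements, 16.9% with supplements and 1.69% at 4 dpi, against 61.0%, 63.1% and 4.12% before thinning. In cells with no Stmn2 or Tubb3 UMI and at least 10 UMIs of Col1a1, Col1a2 and Col3a1, which mark fibroblasts, the thinned shares of Syt11 were 4.23%, 0.719% and 0.786%, of which the share with supplements is 1 of 139 cells, under the 2.16% that 3 cells make. Syt1 was detected after thinning in 16.2%, 12.4% and 4.70% of all kept cells, and in 4.44%, 7.91% and 3.83% of the fibroblast marker cells. Its share at 4 dpi was thus close to that in fibroblast marker cells of the same library. Those cells had median depths of 9549, 12178 and 2259 UMIs.

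Cells with a Stmn2 UMI carried more of the machinery than cells without one in each 14 dpi library. At 14 dpi, 985 cells without supplements (26.5%) and 1339 cells with supplements (57.9%) had at least 1 Stmn2 UMI, against 48 cells (1.07%) at 4 dpi. These shares are at full depth, and thinned to 1000 UMIs they were 13.0%, 35.8% and 0.480%. Without supplements, 20 of 28 members were at least 2-fold higher in Stmn2-positive than in Stmn2-negative cells, against 8.66% of all genes tested. With supplements, 13 of 26 were, against 5.73%. In each library 3 of these reached 10 CPM only in the positive cells and so had to be higher there, which leaves 17 of 25 without and 10 of 23 with supplements. The share of all genes without such cases was not computed. The highest ratio of Stmn2-positive over Stmn2-negative cells among the members tested was that of Cplx1. It was 3.11 on the log2 scale without and 2.60 with supplements, while Sypl was lower in the positive cells at -0.26 and -0.58. Sv2b stood at -0.14 (-0.41 to 0.13) and -0.59 (-0.77 to -0.40), and Vamp1, without supplements, at -0.19 (-0.48 to 0.10). At 4 dpi, 6 of 16 members were at least 2-fold higher and 1 lower in the 48 Stmn2-positive cells. Of these 16, 3 reached 10 CPM only in the positive cells, which leaves 3 of 13 higher. These calls rest on few UMIs, as 3 counts make 21.2 CPM in the 48 cells, and Dnm1, the lower one, had 1 UMI there. The share of all genes called at 4 dpi was not computed. Cells were also split by Tubb3 after thinning to 1000 UMIs. Then 13 of 27, 0 of 26 and 4 of 16 members were at least 2-fold higher without supplements, with supplements and at 4 dpi. Of the members tested, 1, 1 and 6 reached 10 CPM only in the Tubb3-positive cells, which leaves 12 of 26, 0 of 25 and 1 of 10. The share of all genes called in this split was not computed. The median log2 ratios were 0.94, 0.51 and 0.64, beside 0.09, 0.00 and 0.02 over all genes. Stmn2-negative cells at 14 dpi also stood above those at 4 dpi. Without supplements 20 of 25 members were at least 2-fold higher there, against 12.3% of genes, and with supplements 17 of 23, against 9.56%. Of these, 12 and 10 reached 10 CPM only through the 14 dpi cells and had to be higher. Of the 13 that had 10 CPM at 4 dpi, 8 were at least 2-fold higher without and 7 with supplements. The matching share of all genes was not computed here either. Syn2 had 84.3 CPM in the Stmn2-negative cells without supplements, 71.8 CPM with supplements and 7.46 CPM at 4 dpi. Many Stmn2-negative cells carried another neuronal transcript, as Tubb3 had 340, 688 and 234 CPM in them in the same order. After thinning to 1000 UMIs, Tubb3 was detected in 19.7%, 34.5% and 16.3% of them. Its part in these member levels was not tested.

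The 14 dpi libraries differ in supplements, and their Stmn2-positive cells set cells with a neuronal transcript against each other. Most members were somewhat higher without supplements in these cells. The members summed to 3163 CPM without and 2403 CPM with supplements. Of 27 members tested, 4 were at least 2-fold higher without supplements, against 6.3% of 9486 genes, and 1 was at least 2-fold lower, against 4.11%. Of the 4, Syt5 reached 10 CPM only without supplements and had to be higher there, which leaves 3. The share of all genes without such cases was not computed. A positive ratio was found for 21 of 27 members, 77.8%, against 54.2% of all genes, and the median log2 ratio was 0.43, beside 0.05 over all genes. The median depth of these cells was 12245 UMIs without and 15241 UMIs with supplements, and Stmn2 itself was lower without supplements, at 831 against 1361 CPM. The fibroblast markers in these cells summed to 2103 CPM without and 1917 CPM with supplements, none was at 0, and of 18 tested 4 were at least 2-fold higher and 3 lower. Their part in the ratios was not tested.

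The 4 higher members had separate roles. Sv2a had 60.3 CPM without and 19.7 CPM with supplements, a log2 ratio of 1.61 (interval 1.44 to 1.78). Syt5, a synaptotagmin of dense-core and synaptic vesicles, had 12.0 and 4.35 CPM, a ratio of 1.46 (1.09 to 1.83) that rests on 170 and 99 UMIs. Syn2, whose promoter window is given above, had 260 and 113 CPM, a ratio of 1.20 (1.13 to 1.27). Dnm1 had 68.5 and 29.9 CPM, a ratio of 1.19 (1.05 to 1.34) that came under 2-fold when cells were thinned to 1000 UMIs, at 0.94. Just under the threshold, Syt1 had 341 CPM without and 174 CPM with supplements, a log2 ratio of 0.97 (0.91 to 1.03). It passed 2-fold in 7 of 13 other settings, among them thinning to 1000 UMIs (1.08) and matched Stmn2 levels (1.05).

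The lower member was Syt4, with 109 CPM without and 244 CPM with supplements, a log2 ratio of -1.16 (-1.24 to -1.08). The call on Syt4 was lost when each cell was thinned to 1000 UMIs (-0.93), when Stmn2 levels were matched (-0.87) and in cells with fewer than 3 collagen UMIs (-0.67), all in the same direction. Sv2b just missed the threshold with 11.6 and 22.8 CPM, a ratio of -0.97 (-1.23 to -0.72) that passed it at matched Stmn2 levels (-1.06) and in cells with few collagen UMIs (-1.68). Snap25 had 142 and 209 CPM, a ratio of -0.55 (-0.63 to -0.48). Nsf, Pclo and Cplx2 had ratios between -0.13 and -0.03, and the intervals of Pclo and Cplx2 include 0. The remaining members tested lay between 0.14 for Stx1a, whose interval includes 0 (-0.07 to 0.34), and 0.68 for Rab3c and Amph. The SV2 family thus differed inside itself, as Sv2a took 79.0% of SV2 UMIs in these cells without and 44.3% with supplements, and Sv2b 15.2% and 51.1%. Synaptotagmin shares differed as well, with Syt4 at 11.9% without and 33.6% with supplements and Syt1 at 37.2% and 23.8%.

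**Figure D4:**
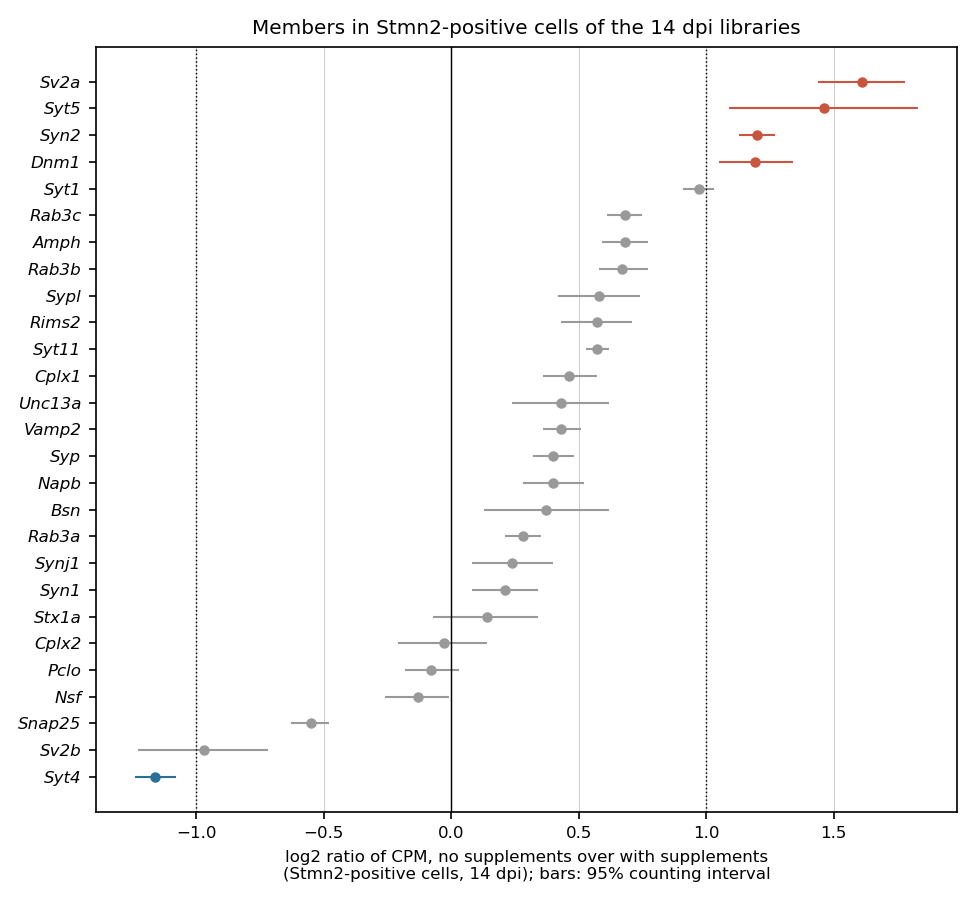
Log2 ratio of the level without supplements over that with supplements in Stmn2-positive cells at 14 dpi, for the 27 members with at least 10 CPM in either library; bars are 95% counting intervals, dotted lines mark 2-fold, and coloured points are past it. Sv2a, Syt5, Syn2 and Dnm1 lie above 1, Syt4 lies below -1, and most other members lie between 0 and 0.68.

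These ratios depended on which cells were summed. Over all kept cells, 1 member was at least 2-fold higher without supplements and 3 were at least 2-fold lower. The median log2 ratio was -0.16, beside -0.03 over all genes. The shares of all genes past 2-fold over all kept cells were not computed, so these counts have no share to stand beside. The higher one was Vamp1, with 10.5 CPM without and 5.17 CPM with supplements. Vamp1 reached 10 CPM only without supplements, so it had to be higher there. The lower ones were Syt4 (-1.97), Snap25 (-1.26) and Sv2b (-1.13). Sv2a (0.95), Dnm1 (0.83), Syt5 (0.79) and Syn2 (0.51) no longer reached 2-fold. Vamp2, Stx1a, Napb, Cplx1, Syp, Syn1, Rab3a, Bsn and Synj1 changed sign, to values between -0.08 and -0.38. The library without supplements held a smaller share of Stmn2-positive cells, 26.5%, against 57.9% with supplements.

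Along the Stmn2 level of the cell, member transcripts were higher in each higher class, and more steeply without supplements. The summed level was 1209 CPM in cells without Stmn2, 1667 CPM up to 100 CPM of Stmn2, 2466 CPM from 100 to 400, 3705 CPM from 400 to 1600 and 4633 CPM above 1600 in the library without supplements. With supplements it was 1198, 1235, 1773, 2607 and 2983 CPM over the same classes. In the lowest class the sums were thus about level, and in the highest they were 4633 CPM without and 2983 CPM with supplements. The collagens used to mark fibroblasts ran the other way, at 2659 CPM in the lowest and 208 CPM in the highest class without supplements, and 1584 and 176 CPM with supplements. Their part in the member levels was not tested.

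The libraries diverged in Syn2 as Stmn2 went up, with 84.3 CPM without and 71.8 CPM with supplements in cells without Stmn2, and 429 against 127 CPM in the highest class. Its log2 ratio went through 0.23, 0.47, 0.88, 1.37 and 1.75 from the lowest to the highest class. Pclo went through -1.23, -0.73, -0.53, 0.13 and 0.45, so it was lower without supplements in cells without Stmn2 and higher in the highest class. Sv2a was higher without supplements in every class, with ratios of 1.02 to 2.19. Snap25 was lower without supplements in every class, and the gap narrowed from -1.48 in cells without Stmn2 to -0.19 in the highest class. Syt4 was lower in 4 classes, at -1.88 to -0.54, and level in the class up to 100 CPM at 0.03 (-0.28 to 0.34). The level of Sv2b did not climb with Stmn2, with 12.8 CPM in the lowest and 9.97 CPM in the highest class without supplements, and 34.2 and 17.7 CPM with supplements.

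**Figure D5:**
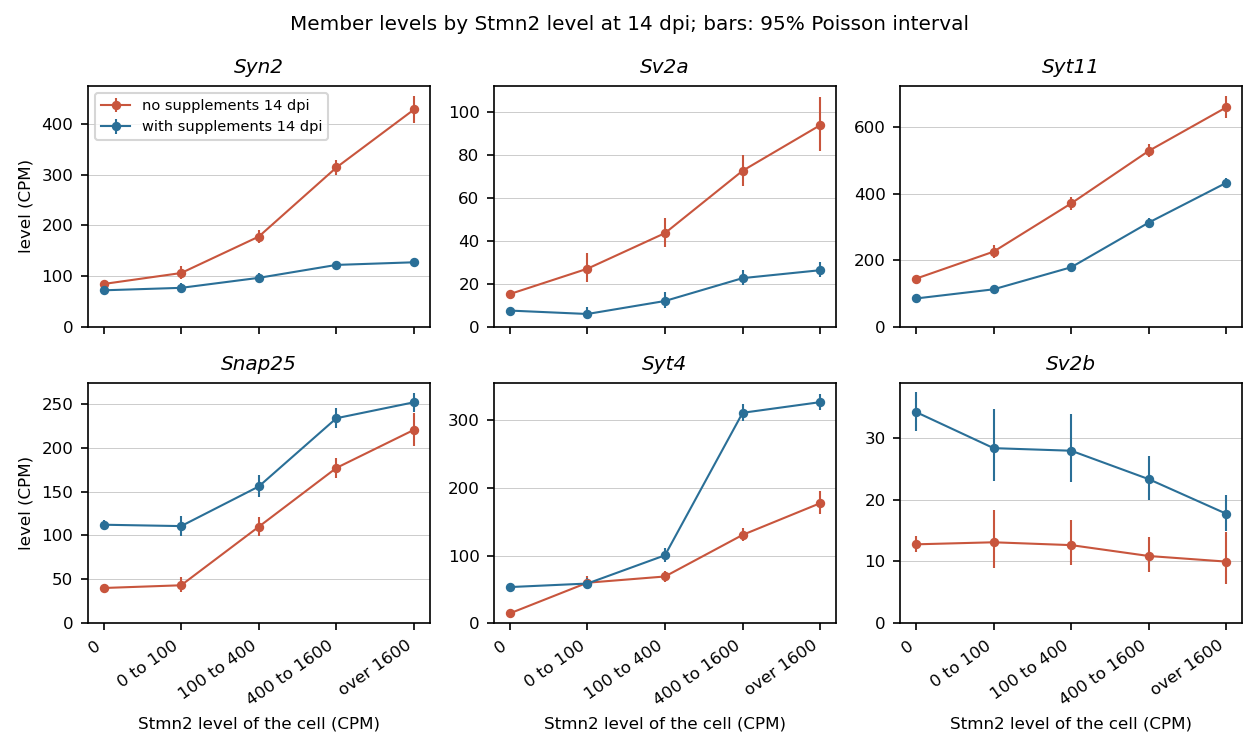
Level of 6 members in CPM by the Stmn2 level of the cell (classes of CPM) in the 14 dpi libraries without and with supplements; bars are 95% Poisson intervals. Syn2 climbs to 429 CPM without and 127 CPM with supplements, Sv2a and Syt11 stand higher without supplements in every class, Snap25 stands lower in every class and Syt4 in 4 of them, and Sv2b does not climb in either library.

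In Stmn2-positive cells thinned to 5000 UMIs, a cell held on average 9.05 of the 34 members without supplements (929 cells) and 7.14 with supplements (1242 cells). The fibroblast marker cells held 2.05 and 2.48. A UMI of each of Snap25, Vamp2 and Syt1, which stand for both sides of the fusion complex and its calcium sensor, was found in 24.1% of Stmn2-positive cells without supplements (interval 21.4 to 27.0) and 15.1% with supplements (13.1 to 17.2). It was found in 2 of 846 and 1 of 135 fibroblast marker cells at that depth. Over all kept cells it was found in 9.45% without supplements (8.49 to 10.5) and 11% with supplements (9.69 to 12.4). At 4 dpi it was found in 1 of the 369 kept cells deep enough, where 4123 cells were too shallow. Of those 369 cells, 7 were Stmn2-positive, and 0 of the 7 had all 3 genes. Thinning to this depth left out 56 of the Stmn2-positive cells without supplements and 97 of those with supplements.

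Other genes of the pathway, taken from lists that do not hold the members, followed them in part. Of other active zone and calcium channel genes, 14 of 18 tested were at least 2-fold higher than 4 dpi both without and with supplements. The largest ratios were those of Sncb, a synuclein, with 7.15 without and 6.08 with supplements, the adhesion protein Nrxn3 with 5.45 and 6.31, and the calcium channel Cacna1e with 4.68 and 5.13. Of other vesicle membrane genes, 8 of 11 were higher without and 10 of 12 with supplements, led by the acetylcholine transporter Slc18a3 with 5.35 and 5.62 and Syngr3, a synaptogyrin, with 4.14 and 4.09. Of other synaptotagmin and Rab3 pathway genes, 7 of 9 were higher without and 4 of 7 with supplements. Of other SNARE and fusion genes 4 of 15 and 3 of 14 were, not far from the 15.7% and 15.4% of all genes. Other genes of vesicle endocytosis stood at 7 of 19 and 6 of 19, with Sh3gl2, endophilin, at 29.9, 22.5 and 3.69 CPM. None of these lists held a gene at least 2-fold lower at 14 dpi. Genes that reached 10 CPM only at 14 dpi, such as Slc18a3 and Sh3gl2, had to be higher there. They were not taken out of these counts.

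In Stmn2-positive cells, 6 of 12 genes of the synaptotagmin and Rab3 list were at least 2-fold higher without supplements and 1 was lower, beside 6.3% and 4.11% of all genes. Rab27a, a GTPase of secretory granules, had 22.2 CPM without and 4.61 CPM with supplements, Syt17 had 27.8 and 6.41 CPM, and Rab3ip, which activates Rab proteins, 132 and 48.9 CPM. Syt6 was the lower one at 5.27 and 12.0 CPM. In the active zone and calcium channel list 4 of 21 were higher and 1 lower, with Sncb at 54.3 without and 16.4 CPM with supplements and the N-type calcium channel Cacna1b at 35.5 and 74.6 CPM. Of the endocytosis genes 2 of 21 were higher, a share near that of all genes, Pacsin1 at 21.7 and 5.40 CPM and Dnm3 at 28.1 and 13.6 CPM. Of the 12 vesicle membrane genes tested, 0 were past 2-fold in either direction. Rab27a, Syt17 and Pacsin1 reached 10 CPM only without supplements, and Syt6 only with them, so the level rule fixed their direction. Such genes were not taken out of the counts for these lists.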

How the data were processed

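The deposited files hold raw counts of UMIs per gene and cell barcode, made by the authors with Cell Ranger 6.1.1, per the file headers, on GRCm39, per the submitters' processing notes. Libraries were 10x Genomics 3′ libraries, per the labels' protocols. The rule that called cells, and the treatment of strand and intronic reads, are not given in the sources used here. Deposited totals were 46150432 UMIs without supplements, 37112015 with supplements and 12290301 at 4 dpi, over 3893, 2467 and 4602 barcodes. Features with the same symbol were summed (31783 features, 31744 symbols).

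A barcode needed 500 or more genes, and no more than 20% of its UMIs could come from the 13 mitochondrial genes. This removed 177, 153 and 110 barcodes. Scrublet (scanpy 1.11.5) called 2, 3 and 2 doublets, so few that the caller cannot be relied on, and no doublet was removed. UMIs were summed over cells and expressed per 1000000 (CPM). Levels have exact Poisson intervals, and log2 ratios and shares exact Clopper-Pearson ones, at 95% and for counting error only. PCR copies were collapsed by UMI. A count of 0 was set to 3 counts in ratios. Calls needed at least 10 CPM in either library and a 2-fold difference. The ratio step was tested on simulated data. Thinning drew UMIs without replacement with a fixed seed. The members and lists were chosen with earlier results of these data known. A member is described with its values where it reached 10 CPM in a library and briefly otherwise, and of the other lists at most 4 genes per direction are named, by size of ratio. Promoters came from RefSeq (GRCm38.p6) and gene overlaps from GENCODE M21, whose coordinates were not joined to the counts. Results on some other genes of the fusion list are not reported here.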

Additional observations from a re-analysis of the deposited data

Results flagged for a closer look

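Sv2b moved in opposite directions between 4 dpi and the 14 dpi libraries, with a log2 ratio of 14 dpi over 4 dpi of -0.90 without supplements (interval -1.11 to -0.69) and 0.22 with supplements (0.03 to 0.42). The difference between these ratios was not tested, because each group holds 1 library and both ratios share the 4 dpi library. The levels were 12.4 CPM without supplements, 27.1 CPM with supplements and 23.2 CPM at 4 dpi. In fibroblast marker cells they were 12.8, 27.6 and 21.5 CPM in the same libraries, so the difference was there too.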

How the results depend on the processing

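No paired analysis was possible because each group holds 1 library, and for the same reason no replicate could be left out. The counts of members at least 2-fold higher at 14 dpi kept within 22 to 24 without supplements and 20 to 23 with supplements over the 8 other settings run for each. In Stmn2-positive cells, 4 members were at least 2-fold higher without supplements, against 1 over all kept cells and 4 to 6 under the 12 other settings. The count of members at least 2-fold lower was 1, against 0 after thinning to 1000 UMIs and 3 over all kept cells. It was 2 with the mean of CPM over cells, without the 5% highest doublet scores, without the 5% of cells with the most UMIs, and in cells Stmn2-positive after thinning to 5000 UMIs. These moves come from Syt4 and Sv2b, which lie near the threshold, and over all kept cells from Snap25 as well. Of 767 member values recomputed, 744 kept their sign, 23 changed it without a call, and 404 of 417 called values kept their call. The settings of Tubb3-positive cells and of few collagen UMIs were chosen after seeing the data. Depth limits the 4 dpi values, where Cplx1, Syt4, Rims1, Syt5 and Rph3a rest on 5 UMIs or fewer.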
